A study of Mus musculus with 3 samples.

Results

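Muscle contraction is switched on and off by calcium, and 9 genes of its release, entry and removal were followed here across 3 mouse muscles. They were chosen by function from the 48397 genes of the deposited count table, with earlier results of these data known. Counts of reads and calls among them are therefore not independent of that choice. They are the ryanodine receptors Ryr1 and Ryr2, the voltage-gated calcium channel subunits Cacna1s, Cacna1c and Cacna2d1, and the SERCA pumps Atp2a1 and Atp2a2. Sarcalumenin (Srl) and the sodium-calcium exchanger Slc8a1 complete the 9. All 9 had reads, against 3219 of all genes in the count table, and 8 of the 9 had enough for the authors to resolve their exons. The study applied PacBio Iso-Seq, which reads a cDNA molecule from end to end, to the cardiac apex, whole extensor digitorum longus muscle (here EDL; fast) and whole soleus muscle (slow) of wild-type male C57BL/6 mice aged 8 weeks, to compare the isoforms of very large muscle genes. No treatment is given for any muscle. Each muscle had 1 library, and the sources used here do not say how many mice were behind it. The cDNA had been size-selected for molecules of 5 to 10 kb. Each of the 9 genes has annotated coding transcripts outside that range, whose lengths are given beside the results. Ryr1, Ryr2, Atp2a1, Atp2a2 and Slc8a1 have no annotated coding transcript inside it.

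A muscle action potential opens or moves the voltage-gated channel in the surface membrane, whose pore subunit is encoded by Cacna1s in skeletal muscle and Cacna1c in the heart. In skeletal muscle this channel acts as a voltage sensor that pulls open the release channel Ryr1 by direct contact. In the heart the calcium that enters through Cacna1c opens Ryr2. Calcium then returns to the sarcoplasmic reticulum through the SERCA pumps, with Atp2a1 typical of fast fibres and Atp2a2 of slow fibres and heart, or leaves the cell through Slc8a1, while Srl binds calcium within the store.

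Consensus reads in genes numbered 18302 for cardiac muscle, 19826 for EDL and 17459 for soleus. A consensus read merges full-length reads, each from 1 sequenced molecule, that were judged to be the same transcript. Levels are given in RPM, a gene's consensus reads after all libraries are brought to 1 total of reads in genes, and all intervals are exact 95% intervals that cover counting error only. No difference between muscles has a replicate check. Markers were checked against the labels. Myh6, the heart myosin, had 2060 reads in the heart, 30 in EDL and 31 in soleus, Myh4, the fastest fibre myosin, had 17, 432 and 135, and Myh7, the slow myosin, had 38, 18 and 433 in the same order. The other fast myosins did not separate EDL from soleus as Myh4 did: Myh1 had 4, 119 and 100 reads and Myh2 had 5, 56 and 174. Of 13 cardiomyocyte markers, Nppa, Nppb, Myl7 and Myl2 had no read in any library, and no read fell on the 8 nerve and Schwann cell markers. Summed marker reads of other cell types were 19 to 26 for smooth muscle and pericytes, 49 to 64 for endothelium, 0 to 5 for fibroblasts and 6 to 8 for blood and immune cells. These are whole tissues, in which fewer cells of a type and less RNA per cell cannot be told apart.

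The ryanodine receptors were found in separate tissues. Ryr1, the skeletal release channel (chr7:29003344-29125179, minus strand, GRCm38), was read 0 times in cardiac muscle, 100 times in EDL and 35 times in soleus. Those counts correspond to 0 RPM in the heart (interval to 202), 5044 RPM in EDL (4104 to 6135) and 2005 RPM in soleus (1396 to 2788). Ryr2, the cardiac release channel (chr13:11553102-12106945, minus strand), had 94 reads or 5136 RPM in cardiac muscle (4150 to 6285) and 0 reads in both leg muscles, where the intervals reach 186 RPM in EDL and 211 RPM in soleus. Taken as a share of the reads of both receptors, Ryr1 held 0 of 94 in cardiac muscle (up to 3.85%), 100 of 100 in EDL (from 96.4%) and 35 of 35 in soleus (from 90.0%). The annotated coding transcripts of Ryr1, 15300 to 15358 nt, and the longest of Ryr2, 16814 nt, exceed the selected size.

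The pore subunits of calcium entry followed the same split. Cacna1s, the skeletal voltage sensor (chr1:136052750-136119822, plus strand), was read 2 times in cardiac muscle, 129 times in EDL and 87 times in soleus, that is 109 RPM (13.2 to 395), 6507 RPM (5432 to 7731) and 4983 RPM (3991 to 6147). It was the member with most reads in either leg muscle. Cacna1c, the cardiac pore subunit (chr6:118587240-119196418, minus strand), was read 13 times in cardiac muscle, 1 time in EDL and 0 times in soleus, with 710 RPM in cardiac muscle (378 to 1215). Of the reads of these paralogs, Cacna1s held 13.3% in cardiac muscle (1.66 to 40.5), 99.2% in EDL (95.8 to 100) and 100% in soleus (from 95.8). Cacna2d1, the extracellular auxiliary subunit that accompanies either pore (chr5:15934691-16374511, plus strand), was found in all 3 libraries, with 5 reads from the heart, 19 from EDL and 21 from soleus. Its levels were 273 RPM (88.7 to 638), 958 RPM (577 to 1497) and 1203 RPM (745 to 1839), and the cardiac and soleus intervals did not overlap. Of the annotated coding transcripts of Cacna1s, 4923 to 6251 nt long, 3 of 4 lie within 5 to 10 kb. For Cacna1c, 21 of 22 do (6462 to 13162 nt), and for Cacna2d1 only 2 of 8 do (1272 to 7436 nt).

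Among the pumps and exchangers, Atp2a1, the fast-fibre pump (chr7:126445858-126463108, minus strand), had 6 reads in EDL and 0 in cardiac muscle and soleus. Atp2a2, the pump of heart and slow fibres (chr5:122453513-122502225, minus strand), had the opposite distribution, with 13 reads from the heart, 0 from EDL and 21 from soleus. No library held reads of both pumps. Atp2a1 took 0 of 13 pump reads in cardiac muscle (up to 24.7%), 6 of 6 in EDL (from 54.1%) and 0 of 21 in soleus (up to 16.1%). Every annotated coding transcript of either pump is shorter than the selected size, the longest being 3477 nt for Atp2a1 and 4486 nt for Atp2a2. Atp2a2-203, typed as a nonsense-mediated decay transcript, is 5674 nt long and lies within that size. Most Atp2a2 reads had its joined structure, as described below, and no annotated Atp2a1 transcript lies within the size. The part of size selection in the pump shares was not tested. Srl (chr16:4480216-4541816, minus strand) was read 17 times in cardiac muscle, 30 times in EDL and 17 times in soleus, with levels of 929, 1513 and 974 RPM whose intervals all overlap. Slc8a1, the main route of calcium out of the heart muscle cell (chr17:81373105-81738377, minus strand), was read 37 times in cardiac muscle, 8 times in EDL and 3 times in soleus, with 2022 RPM (1423 to 2787), 404 RPM (174 to 795) and 172 RPM (35.4 to 502). Its 6 annotated coding transcripts run from 2017 to 18464 nt, and none lies within the selected size.

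**Figure D1:**
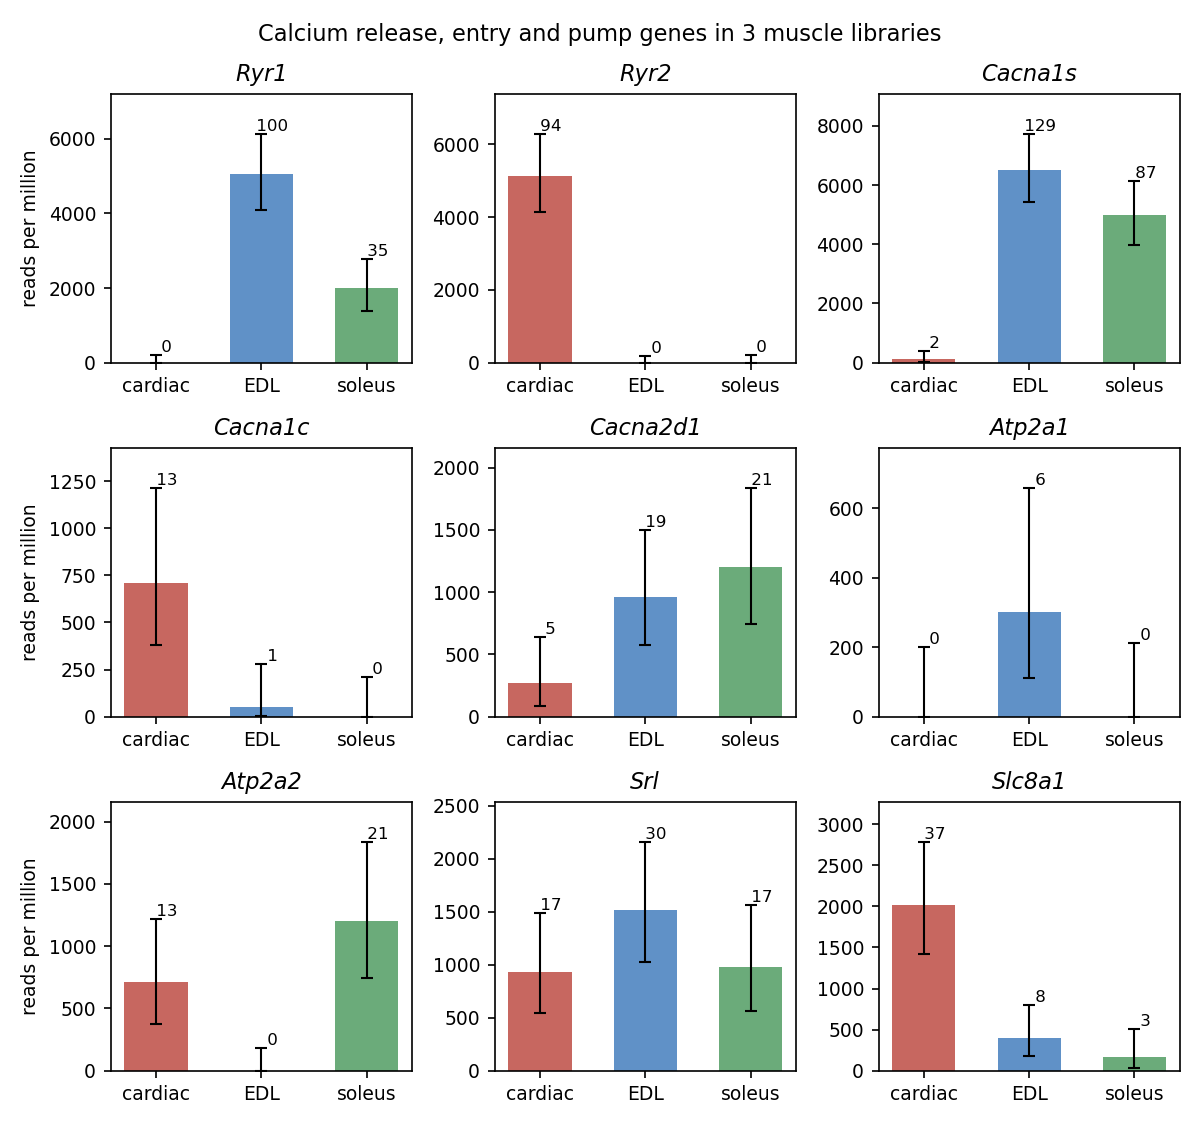
Level (RPM) of each of the 9 genes in the cardiac, EDL and soleus libraries, with exact 95% Poisson intervals and the number of consensus reads above each bar; each panel has its own vertical scale. Ryr2, Cacna1c and Slc8a1 were highest in cardiac muscle, Ryr1 and Cacna1s were found almost wholly in the leg muscles, and Atp2a2 was absent from the EDL reads.

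Cardiac muscle was then set against EDL. A call needed 20 reads of the gene over both libraries of the pair and an RPM ratio whose whole interval was past 2-fold. Of the 6 members with enough reads, 2 were called higher on the cardiac side, as were 3.2% of all 500 genes tested, and 2 on the EDL side, as were 5.2%, with 8.4% called in either direction. A library without reads was set at a floor of 3 counts for the fold, and the exact interval is given beside it. Ryr2 was 33.9-fold higher in cardiac muscle at that floor (interval from 27.1), and Slc8a1 was 5.01-fold higher (2.30 to 12.5). EDL exceeded the heart 30.8-fold at the floor for Ryr1 (interval from 24.6) and 59.5-fold for Cacna1s (16.2 to 497). Summed marker reads moved the same way, with 2104 in cardiac muscle against 30 in EDL for cardiomyocytes and 26 against 675 for fast fibres, and their part in the result was not tested. Cacna2d1, with a ratio of 0.285 (0.0832 to 0.789), and Srl, with 0.614 (0.318 to 1.15), were not called. Counted as full-length reads, both were called higher in EDL, which makes 2 members higher in the heart and 4 in EDL. The log2 ratios were -2.53 in place of -1.71 for Cacna2d1 and -1.94 in place of -0.69 for Srl. Full-length reads merged into 1 consensus read are not independent, which the intervals behind these and later full-length calls ignore. For Srl, 292 full-length reads in EDL came from 26 consensus reads over the same part, and 72 in cardiac muscle from 17. Cacna1c, Atp2a1 and Atp2a2 had too few reads in the pair for a call. The intervals of Cacna1c (2.12 to 598) and Atp2a2 (from 3.30) nevertheless lay above 2-fold, and both were called without the read filter, while that of Atp2a1 ended at 0.920. The median log2 ratio of the 6 members was -1.20 (-1.26 with zero counts set at the floor), against -0.02 for all genes tested, and members of opposite direction stand on either side of it.

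Against soleus, 7 members had enough reads and the same 4 genes were called: 2 higher in the heart, as were 3.38% of 473 genes, and 2 in soleus, as were 4.86%, with 8.25% called either way. Ryr2 was 29.9-fold at the floor (interval from 23.8) and Slc8a1 11.8-fold (3.73 to 59.6) higher in cardiac muscle. Ryr1 was 12.2-fold at the floor (interval from 9.43) and Cacna1s 45.6-fold (12.3 to 382) higher in soleus. Atp2a2 was not called, with a ratio of 0.591 (0.272 to 1.24), nor was Srl, with 0.954 (0.458 to 1.99), a ratio that moved just above 1 under other scalings. Cacna2d1 had a ratio of 0.227 (0.0669 to 0.619) and missed the 2-fold limit, but passed when the limit was set at 1.5-fold and in full-length reads, where its log2 ratio was -2.53 in place of -2.03. Cacna1c, with too few reads for a call, had an interval from 2.91 and was called without the read filter. The median log2 ratio was -0.74 for the members (-0.76 with zero counts at the floor) and -0.07 for all genes tested. These 2 comparisons share the cardiac library, so their common calls are not separate observations of it.

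Between EDL and soleus, 1 of the 5 members with enough reads was called, where 1.82% of 494 genes were called in either direction and 1.42% higher in soleus. Atp2a2 was 7.95-fold higher in soleus with EDL at the floor of 3 counts (interval from 5.91). The 6 slow-fibre markers summed to 38 reads in EDL and 446 in soleus, of which Myh7 gave 18 and 433, while Mybpc1 had 18 in EDL and 11 in soleus and Tnni1 none. The part of fibre type in the result was not tested. Ryr1 was 2.52 times as abundant in EDL (1.70 to 3.81), an interval above 1 that includes 2-fold. Counted in full-length reads over its best covered part, Ryr1 had 699 in EDL and 70 in soleus, and its log2 ratio was 3.51 in place of 1.32 and was then called. A consensus read of Ryr1 merged 6.99 full-length reads in EDL and 2.06 in soleus. Cacna1s had a ratio of 1.31 (0.987 to 1.73) and merged 13.6 and 14.3 full-length reads per consensus read in EDL and soleus. Cacna2d1, with a ratio of 0.797 (0.405 to 1.56), and Srl, with 1.55 (0.830 to 3.004), were not called either, although in full-length reads the log2 ratio of Srl was 2.24 in place of 0.62 and was called. The median log2 ratio was 0.38 for the 5 members and -0.06 for all genes tested.

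**Figure D2:**
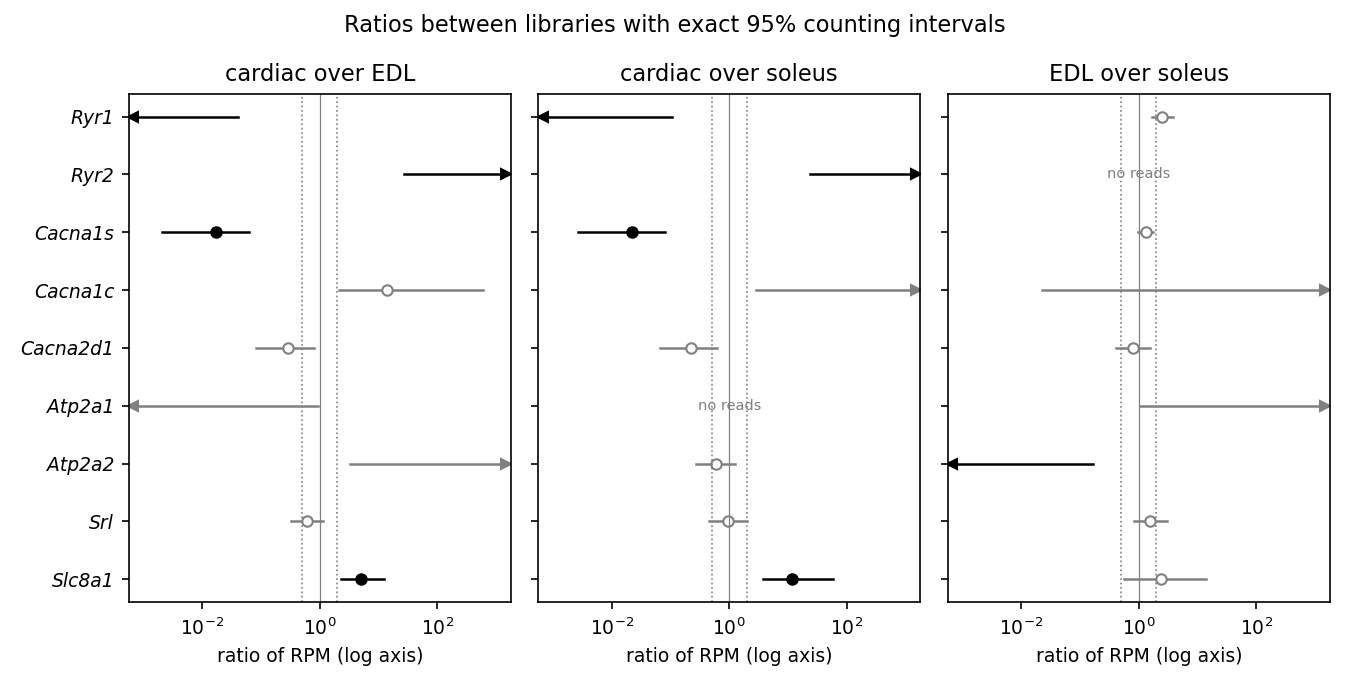
Ratio of RPM for each gene in the 3 pairs of libraries on a log axis, with exact 95% intervals; filled black symbols and black lines mark called genes, arrows mark a library with 0 reads, and dotted lines stand at 2-fold either way. Ryr1, Ryr2, Cacna1s and Slc8a1 were called in both cardiac pairs, and Atp2a2 between EDL and soleus. The intervals of Cacna1c in both cardiac pairs and of Atp2a2 in cardiac over EDL also lie beyond a dotted line, with too few reads for a call.

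The reads of both release channels covered only stretches of these transcripts, and the places where they stopped are shown here because they set what can be said of each gene. In EDL, Ryr1 coverage climbed from 20 reads at the first exon to 100 at exon 35, dropped to 78 in the next exon, and dropped again from 75 reads at exon 54 to 3 in the next. In soleus, 33 reads covered exon 54 and 5 the exon after it. Only 1 of 100 EDL reads (0.0253 to 5.45%) and 6 of 34 soleus reads (6.76 to 34.5%) covered the last exon. Exon 54 is centred 8.61 kb from the transcript start, inside the selected size. Its sequence (chr7:29068999-29069139, minus strand, GRCm38, from the GENCODE M21 transcript Ryr1-201, coding) is given with its 20-base window richest in A in capitals.
Ryr1 exon 54: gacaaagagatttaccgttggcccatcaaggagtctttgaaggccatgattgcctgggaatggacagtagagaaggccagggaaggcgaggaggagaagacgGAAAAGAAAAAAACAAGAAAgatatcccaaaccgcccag
That window held 16 A, the highest number in any of the 15333 windows of the transcript, and 3 overlapping windows reached it. Exon 35, with 12 A, came second among the 104 exons long enough to hold such a window.

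Ryr2 in cardiac muscle showed several stops. No read covered its first exon, coverage reached 59 reads at exon 55 and fell to 43 in the next exon, and after a second climb it stood at 62, 57, 39 and 30 reads from exon 90 to exon 93. The last exon was covered by 30 reads, against 63 for the best covered part of the gene. The exons at the steepest of the later steps (chr13:11593093-11593157 and chr13:11591225-11591372, minus strand, Ryr2-201, coding) are shown the same way.
Ryr2 exon 91: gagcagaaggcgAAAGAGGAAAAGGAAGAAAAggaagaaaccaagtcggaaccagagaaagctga
Ryr2 exon 92: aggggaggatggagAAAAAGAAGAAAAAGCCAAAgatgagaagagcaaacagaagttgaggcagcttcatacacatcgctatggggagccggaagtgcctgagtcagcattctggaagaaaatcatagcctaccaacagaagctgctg
Their richest windows held 14 A in exon 91 and 15 A in exon 92, and the second of these is the highest in the 16814-nt transcript. Exon 90 had a window with 12 A, and 19 of the 104 exons long enough to hold such a window reached that number. Exon 55, where 16 reads also ended, had at most 9 A, a number that 9.77% of all windows reach. Whether A-rich stretches took part in where reads ended was not tested. Among the other genes, 128 of 129 Cacna1s reads in EDL and 86 of 87 in soleus covered the last exon. Along the longest coding transcript, so did all reads over the best covered part of Atp2a2, Slc8a1, Cacna2d1 and Cacna1c. For Atp2a2 that is the extended exon described below, held by 10 of 13 cardiac reads. None of the 10 cardiac Cacna1c reads covered the final 5064-nt part of the last exon. The first exon of this transcript was covered by 1 of 13 cardiac and 1 of 21 soleus Atp2a2 reads and 1 of 10 cardiac Cacna1c reads. For Cacna2d1 the numbers were 0 of 5, 8 of 19 in EDL and 4 of 21 in soleus. It was covered by 96 of 129 Cacna1s reads in EDL, 37 of 37 cardiac Slc8a1 reads and most Srl reads. For Slc8a1 this first exon is a 1799-nt part, and 18 cardiac reads reached the far upstream noncoding exon described below. The only annotated part counted in the last exon of Slc8a1 was 377 nt long, in a transcript of 18464 nt. Srl reads covered the last exon in 14 of 17 cases in cardiac muscle (56.6 to 96.2%), 27 of 27 in EDL and 15 of 15 in soleus.

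**Figure D3:**
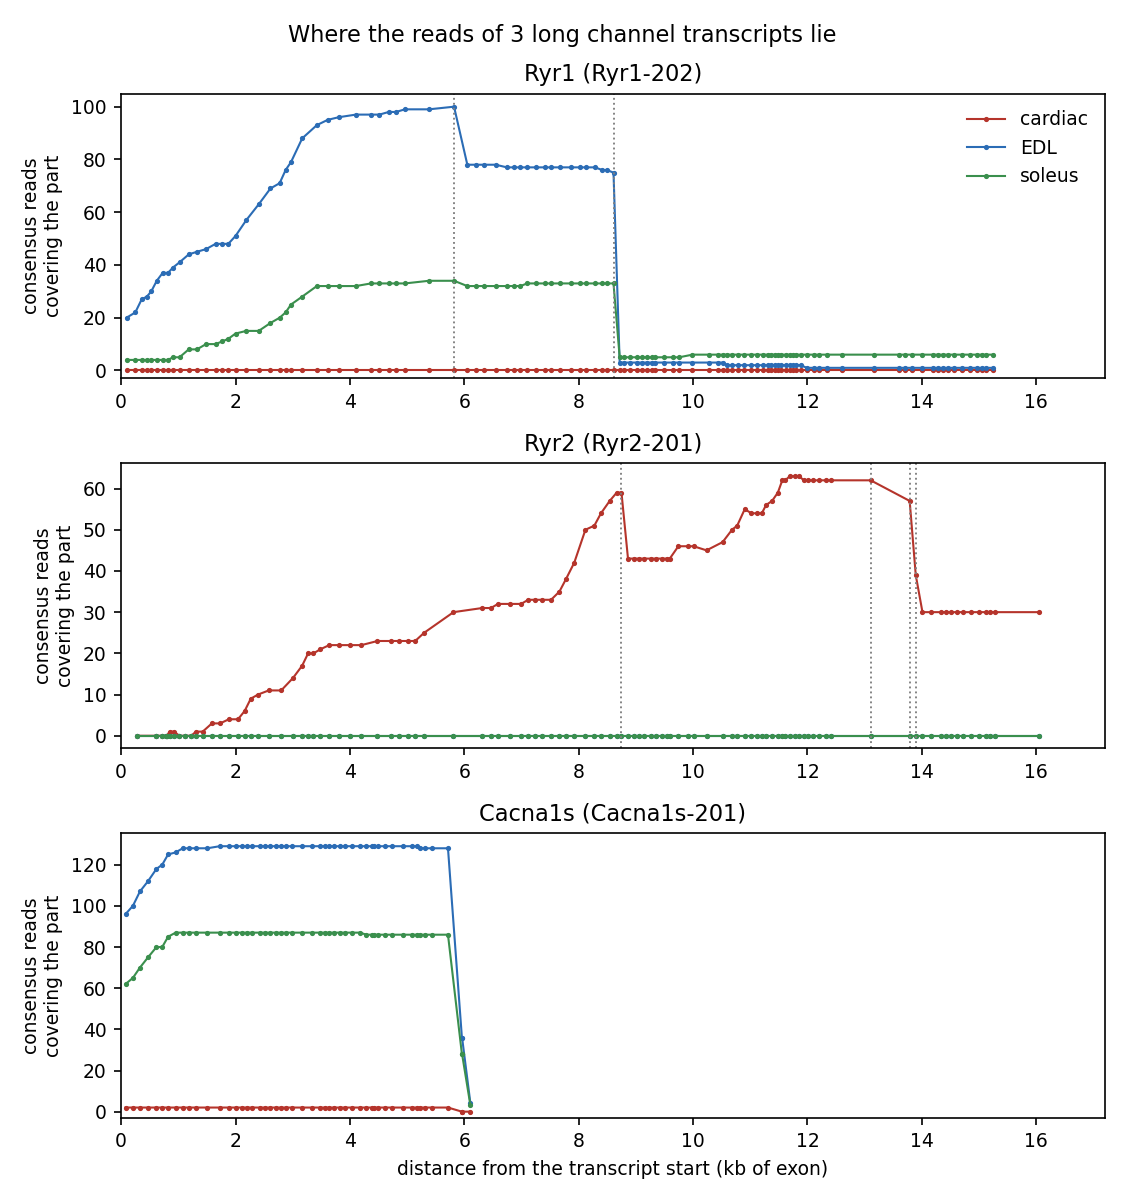
Consensus reads covering each exonic part of Ryr1, Ryr2 and Cacna1s against the distance of the part from the transcript start in kb of exon, for the cardiac, EDL and soleus libraries; dotted lines mark exons after which coverage drops, and lines at 0 lie on top of each other. Ryr1 reads of both leg muscles stop near 8.6 kb, cardiac Ryr2 reads stop in several places, and Cacna1s is covered nearly end to end; the fall at its right edge lies within the last exon.

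Reads that passed exon 54 of Ryr1 were few, but they cover a pair of very short exons known to be spliced in or out of the skeletal channel (chr7:29056234-29056248 and chr7:29044919-29044936, minus strand).
Ryr1 15-nt exon: GCAGGAGACGTACAG
Ryr1 18-nt exon: TCATCAATCGCCAAAACG
Each was held by 0 of 2 reads in EDL and 0 of 6 in soleus, which leaves use of up to 45.9% possible in soleus. In the stretch that was well covered, Ryr1 parts were used nearly always or nearly never: of 54 annotated parts with at least 30 reads in EDL, 50 were held by at least 95% of full-length reads and 4 by at most 5%, with none between. In Ryr2 each of the 69 such parts in cardiac muscle was held by at least 98.3% of full-length reads.

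Exon 29 of Cacna1s (chr1:136104570-136104626, plus strand) is the exon whose skipping is known to mark the embryonic form of the channel, and it is shown because nearly every read held it.
Cacna1s exon 29: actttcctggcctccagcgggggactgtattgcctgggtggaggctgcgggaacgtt
It was present in 2 of 2 consensus reads in cardiac muscle, 128 of 129 in EDL and 87 of 87 in soleus. Of 54 well covered Cacna1s parts in EDL, 51 were held by at least 95% of full-length reads and 3 by at most 5%. In soleus the numbers were 49 and 3 of 52.

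Exon use could be tested for members only between EDL and soleus, where 84 parts, 53 of Cacna1s and 31 of Ryr1, had 30 consensus reads in both libraries. None was called under two-sided Fisher's exact tests on full-length reads with Benjamini-Hochberg adjustment over the 2480 parts of all genes tested, where 1.25% of parts were called; 9 member parts had an unadjusted p under 0.05. The widest difference was 4.35 points, at exon 54 of Ryr1, held by 505 of 505 full-length reads in EDL and 66 of 69 in soleus (adjusted p 0.0406, exact test on reads). A call also required 20 points. No member part qualified in the cardiac pairs, where 7.39% of all parts were called against EDL and 2.95% against soleus. The authors' deposited list of parts differing by 20 points holds 8 exons of Ryr1, exons 5 to 12, all kept after their check by eye. In soleus these exons were covered by 4 to 8 consensus reads, 1 of which lacked each exon.

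Cacna1c in cardiac muscle used both members of pairs of mutually exclusive exons, which encode alternative versions of membrane-spanning segments of the channel. The pairs are shown with the bases that differ between partners in capitals (chr6:118638427-118638510 and chr6:118637730-118637813; chr6:118674555-118674614 and chr6:118674346-118674405; minus strand).
Cacna1c 84-nt exon, upstream: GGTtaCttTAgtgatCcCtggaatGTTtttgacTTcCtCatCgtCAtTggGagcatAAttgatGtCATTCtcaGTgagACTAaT
Cacna1c 84-nt exon, downstream: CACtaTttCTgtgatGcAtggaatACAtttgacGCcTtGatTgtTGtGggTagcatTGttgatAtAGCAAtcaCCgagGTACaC
Cacna1c 60-nt exon, upstream: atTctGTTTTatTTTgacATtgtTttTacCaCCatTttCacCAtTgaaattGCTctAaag
Cacna1c 60-nt exon, downstream: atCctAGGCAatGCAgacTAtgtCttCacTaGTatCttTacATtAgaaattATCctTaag
Partners were identical at 49 of 84 and at 35 of 60 positions, 58.3% in each pair. Of 9 cardiac consensus reads over the first pair, 3 held the upstream exon (7.49 to 70.1%) and 6 the downstream exon (29.9 to 92.5%). Of 8 reads over the second pair, 2 held the upstream exon (3.19 to 65.1%) and 6 the downstream exon (34.9 to 96.8%). The counts of the partners add up to the reads covering each pair, and their intervals overlap. The single EDL read held the downstream exon of the first pair and the upstream exon of the second. A 33-nt cassette exon (chr6:118630399-118630431) was in 10 of 10 cardiac reads and not in the EDL read.

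Nearly all Cacna2d1 reads of the leg muscles held a pair of short coding segments that neither of the 2 cardiac reads over them held. These and another segment, 57, 15 and 21 nt long, are the known alternative regions of this subunit, and are shown because the reads differ in them (chr5:16322539-16322595, chr5:16326312-16326326 and chr5:16341990-16342010, plus strand).
Cacna2d1 57-nt segment: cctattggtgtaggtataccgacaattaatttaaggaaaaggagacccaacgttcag
Cacna2d1 15-nt segment: aaccccaaatctcag
Cacna2d1 21-nt segment: caaaaaagggaaaaatgaagg
The 57-nt segment was held by 0 of 2 consensus reads in cardiac muscle, 16 of 17 in EDL (71.3 to 99.9%) and 16 of 16 in soleus (from 79.4%). The 15-nt segment was held by 0 of 2, 15 of 17 and 15 of 16 reads in the same libraries. The 21-nt segment was held by 2 of 5 reads in cardiac muscle (5.27 to 85.3%), 0 of 19 in EDL (up to 17.6%) and 1 of 21 in soleus (0.12 to 23.8%). Coverage was under the 30 reads required for a test, and the cardiac intervals overlap those of both leg muscles for each segment. The length of each segment is a multiple of 3.

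Most Atp2a2 reads carried both of the alternative 3′ stretches of the gene. Atp2a2 is known for a muscle pump, 2a, and a widely expressed pump, 2b, whose last coding exons differ. The annotation gives the ends on separate coding transcripts, Atp2a2-202 of 3984 nt and Atp2a2-201 of 4486 nt, and joins both stretches in Atp2a2-203 of 5674 nt, which GENCODE types as a nonsense-mediated decay transcript with the same 3132-nt coding length as Atp2a2-201. The terminal exon (chr5:122453514-122454304, minus strand) was held by 13 of 13 reads in cardiac muscle and 21 of 21 in soleus. The extended exon upstream of it (chr5:122456340-122457302) was held by 10 of 13 reads in cardiac muscle (46.2 to 94.96%) and 20 of 21 in soleus (76.2 to 99.9%), so that most reads had the joined structure. Most reads began downstream of the first exon of Atp2a2-201, which 1 of 13 cardiac and 1 of 21 soleus reads covered. Only Atp2a2-203 of these transcripts lies within the selected size, and the reads do not give the balance of 2a and 2b in the tissue.

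Slc8a1 is known for a pair of mutually exclusive exons followed by small cassette exons in the part that codes for a cytoplasmic loop. The 107-nt exon used in nearly all cardiac reads (chr17:81445487-81445593, minus strand) is shown.
Slc8a1 107-nt exon: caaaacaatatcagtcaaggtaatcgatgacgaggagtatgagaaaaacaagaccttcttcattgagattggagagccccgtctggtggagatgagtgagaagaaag
It was held by 36 of 37 reads in cardiac muscle (85.8 to 99.9%), 8 of 8 in EDL and 2 of 3 in soleus. A 104-nt part that is absent from the authors' annotation (chr17:81444869-81444972) was held by 1 of 37 cardiac reads, 0 of 8 EDL reads and 1 of 3 soleus reads. Cassettes of 21, 18, 15 and 69 nt were each held by 36 or 37 of 37 cardiac reads and by 8 of 8 in EDL and 2 or 3 of 3 in soleus. Another cassette of 21 nt (chr17:81441861-81441881) was held by none in any library. Of the 5 Slc8a1 parts in the authors' list of parts differing by 20 points, the 107-nt and 104-nt parts were the 2 kept after their check, and each difference rests on 1 of 3 soleus reads. At the 5′ end, a far upstream noncoding exon (chr17:81738303-81738650) was held by all 18 cardiac reads that reached it and was reached by none in the leg muscles. A noncoding exon nearer to the coding sequence (chr17:81669991-81670217) was held by 0 of 18 reads in cardiac muscle (up to 18.5%), 4 of 5 in EDL (28.4 to 99.5%) and 2 of 2 in soleus (from 15.8%). Coverage was too low for a test of this difference.

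Srl is known for a long form, with an acidic stretch that binds calcium, and a short form that lacks the exon encoding it. That 1311-nt exon (chr16:4496405-4497715, minus strand) was held by 9 of 14 consensus reads in cardiac muscle (35.1 to 87.2%), 20 of 24 in EDL (62.6 to 95.3%) and 9 of 12 in soleus (42.8 to 94.5%). These intervals overlap in every pair. In full-length reads its share was 88.3% of 60 for cardiac muscle (77.4 to 95.18), 97.9% of 283 for EDL (95.44 to 99.2) and 93.7% of 63 for soleus (84.5 to 98.2). The full-length intervals of cardiac muscle and EDL do not overlap, but these reads share consensus reads and are not independent. The long-form transcript of 5000 nt stands at the lower end of the selected size and the short-form transcript of 3698 nt below it.

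**Figure D4:**
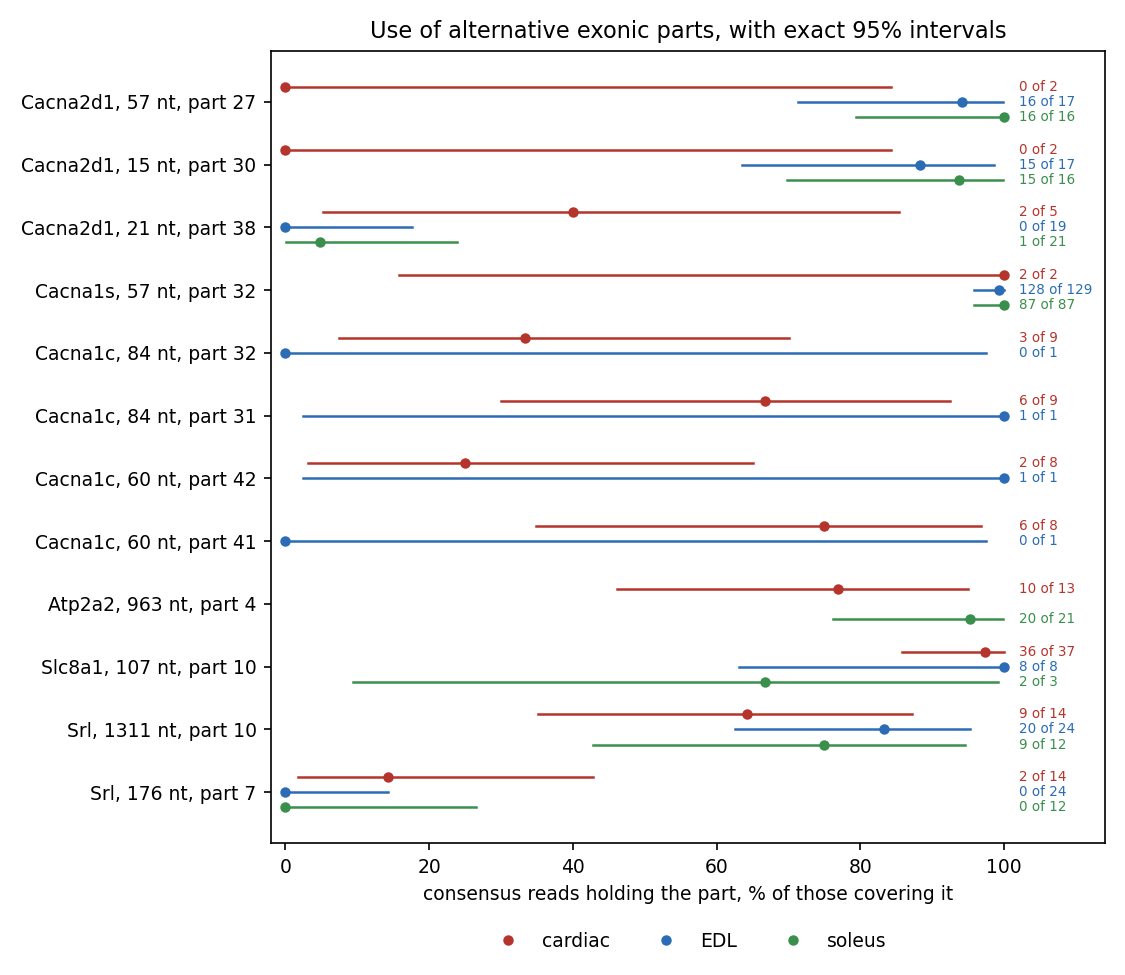
Share of consensus reads that hold each alternative exonic part among those that cover it, with exact 95% intervals and the counts at the right, for cardiac, EDL and soleus reads from top to bottom in each row; a library without a covering read has no point. Leg muscle reads held the 57-nt and 15-nt segments of Cacna2d1, both partners of each Cacna1c pair were found in cardiac muscle, and most Atp2a2 reads held the 963-nt extended exon.

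The rest of the calcium machinery was thinly sampled. Of 4 other release channels, 3 had reads and Itpr1, an inositol trisphosphate receptor, had 14 from the heart, 6 from EDL and 8 from soleus. Of 17 partners and junctional proteins of the release channels, 3 had reads. Akap6, a scaffold that anchors signalling enzymes, had 27 from the heart, 24 from EDL and 22 from soleus, and Asph, the gene of junctin and related proteins, had 13, 2 and 3. Of 12 other pumps, exchangers and pump regulators, 4 had reads, among them Atp2b1, a calcium pump of the plasma membrane, with 11 from the heart, 14 from EDL and 16 from soleus. Reads were seen for 2 of 19 other voltage-gated channel subunits, 2 of 11 store-operated entry and luminal binding genes, 1 of 7 mitochondrial uptake genes and 5 of 12 calcium-dependent signalling genes, and no gene of these lists was called in any pair. Itpr1, Akap6 and Atp2b1 were the only ones with 20 reads in any pair.

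Genes with the nearest distribution over the 3 libraries were found among 321 genes with at least 40 reads, by the summed difference of their shares of RPM in percentage points. Ryr1 was nearest to Myh4 (6.10 points) and Cacna1s to Ttll7 (4.56) and Scn4a, the skeletal sodium channel (8.25). Ryr2 had the same distribution as Chrm2, a muscarinic receptor with 56 cardiac reads, and Dsp, desmoplakin, with 119, neither of which had a leg muscle read. Slc8a1 was nearest to Ppip5k2 (18.3), Cacna2d1 to Ano6 (4.08), Srl to 1700020I14Rik (2.95), and Atp2a2 to Ablim1 (23.5). With 3 libraries these are descriptions of 3 numbers each.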

How the data were processed

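Per the labels' protocols, cDNA was made from total RNA with a SMARTer kit, selected at 5 to 10 kb on a BluePippin instrument and sequenced by Iso-Seq. The submitters' processing notes name STAR 2.5.0am and the builds mm10 and GRCm38. In the protocol deposited by the authors, htseq-count assigned consensus reads to gene names. The authors deposited raw counts of consensus reads per gene, and, for genes with at least 10 reads in some library, counts of consensus and full-length reads that cover and that hold each exonic part (exCOVator, annotation release 85). The columns that give library totals are also deposited counts. The strand setting of the counting is not stated, and 5 members overlap an annotated gene on the other strand.

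Reads assigned to no single gene (9.78% in cardiac muscle, 8.92% in EDL, 8.64% in soleus) stayed out of totals; 1 read is 54.6, 50.4 and 57.3 RPM. Ratios had exact conditional binomial intervals, shares Clopper-Pearson and levels Poisson intervals (scipy 1.17.1, Python 3.11.15). Log2 ratios added 0.5 to each count. Fisher's tests compared libraries, not tissues, and full-length reads merged into 1 consensus read are not independent. Annotation and sequences are from GENCODE M21 (GRCm38); all 476 annotated member parts lie in its exons. All members were described; other calcium genes were named with 10 reads in some library, and exonic parts where called, in the authors' lists, widest in difference or known as alternative. The members and lists were chosen with earlier results of these data known. The scripts were tested on simulated data. Alternatives covered scaling, read filters, the fold limit, read type, coverage and the size of difference.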

Additional observations from a re-analysis of the deposited data

How the results depend on the processing

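Of the member ratios under the alternatives tried, 133 kept their direction and their side of the limit, 2 lost a call, 10 gained one and 3 changed sign. Changing the read filter or the fold limit leaves a ratio as it was, so those alternatives could only add or remove a call. The sign changes were all of Srl in cardiac muscle over soleus, where the log2 ratio was 0.0577 with median-of-ratios scaling, 0.0349 when the top 10 genes per library were left out of the totals and 0.29 in full-length reads; it was never called. Requiring 40 reads in the pair removed the calls of Ryr1 against cardiac muscle in soleus and of Atp2a2 between EDL and soleus, because these genes were then not tested. The count of members called between EDL and soleus, 1 as reported, was 0 with 40 reads required, 2 with the limit at 1.5-fold, where Ryr1 was added, and 3 in full-length reads, where Ryr1 and Srl were higher in EDL. With 30 consensus reads required in some library rather than in both, 6 Ryr1 parts were called between EDL and soleus, all resting on 4 or 5 soleus consensus reads. The other 32 counts and shares stayed within 1.5 times or within their intervals. Median-of-ratios scaling raised all log2 ratios by 0.13 in cardiac muscle over soleus and in EDL over soleus, and leaving out the most abundant genes raised them by 0.10 in cardiac over soleus. No paired analysis was possible because each muscle had 1 library and the labels give no replicate numbers. Depth limits the exon results of Cacna1c, Cacna2d1, Slc8a1 and Atp2a2, none of which had 30 reads over a part in both libraries of a pair.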
